A study of Mus musculus with 37 samples.

Results

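The genes described here build the junctions that hold epithelial cells together: the claudins, the other tight junction proteins and the desmosome, with the epithelial adhesion molecules Cdh1 and Epcam and the epithelial regulators Esrp1, Esrp2 and Grhl2. They were chosen by a rule on symbols that does not use their values, though earlier results of these data were known. In all, 53 of the 48795 genes in the count table belong to the set. The set holds 23 claudins, 3 MARVEL-domain proteins, 3 junctional adhesion molecules, 4 tight junction plaque proteins, 9 desmosomal cadherins, 6 desmosomal plaque proteins, 2 epithelial adhesion molecules and 3 epithelial regulators. Their mRNA was compared between the hippocampus of mice lacking the histone H3K4 demethylase Kdm1a in adult forebrain neurons and that of control littermates. The comparison addresses which genes change when Kdm1a is lost from mature neurons.

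Kdm1a-ifKO mice carried Kdm1a f/f alleles and the Camk2a-creERT2 transgene, whose recombinase is active in principal neurons of the forebrain once tamoxifen is given. Controls were littermates without the Cre transgene, and their genotype is labelled WT. Both groups received tamoxifen, in 5 intragastric administrations to mice 8 weeks old, and both were male and on a C57BL/6J background. The age at which RNA was collected is not given in the sources used here. Each group had 3 mice with 1 poly-A RNA-seq library each. RNA came from whole hippocampus, so neurons that keep Kdm1a, glia, vessels and attached meninges contributed to every value. A CTCF ChIA-PET library from sorted Camk2a+ hippocampal neurons of mice labelled WT, the only sample of its kind, gave the chromatin loops near these genes. Per the methods of the study, nuclei were sorted from mice with the Camk2a-creERT2 transgene and a Sun1-GFP nuclear tag, 1 month after tamoxifen. These mice are called WT below.

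Tight junctions seal the space between neighbouring epithelial or endothelial cells. Claudins, occludin and its MARVEL-domain relatives and the junctional adhesion molecules span the membrane, and plaque proteins of the ZO family and cingulin tie them to actin. Desmosomes are spot-like contacts in which the desmogleins and desmocollins bridge 2 cells, while desmoplakin, plakoglobin and the plakophilins anchor them to intermediate filaments. In the brain, Cldn5 is the claudin of blood-brain barrier endothelium, Cldn11 forms the junctions of myelin sheaths, and Cldn1, Cldn2 and Cldn3 belong to the epithelium of the choroid plexus.

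Read totals were even, at 18985542 to 19469947 counts a library, so that 1 read was worth 0.0508 to 0.0537 CPM, the read count scaled to the size of its library. Kdm1a itself held 1521, 1545 and 1481 reads in the controls against 764, 726 and 748 in Kdm1a-ifKO, a log2 fold change (log2FC) of -1.07 (SE 0.056, adjusted p 6.24e-08, edgeR quasi-likelihood test with Benjamini-Hochberg adjustment over all tested genes). The exact two-sided permutation p for Kdm1a was 0.1, the smallest that 3 against 3 mice allow. The genotypes separated on the first principal component, which took 50.2% of the variance, and the second (16.6%) set control 3 and Kdm1a-ifKO 2 apart from the other 4 libraries. The summed level of 10 leptomeningeal marker genes was 259.0 CPM in Kdm1a-ifKO 2, 83.2 and 114 CPM in the other 2 Kdm1a-ifKO libraries, and 121 to 142 CPM in the controls. For tested junction genes named below whose call changed when 1 of these libraries was left out, the fit without it is stated as well. Genes too low to test have no such fit, and their reads are given by library. The labelled tissue showed its neurons, with summed levels of 8695 to 9813 CPM for 8 excitatory neuron markers and 540 to 633 CPM for 8 dentate granule neuron markers over the 6 libraries.

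Of the 53 junction genes, 28 had enough reads to be tested and 25 did not. In Kdm1a-ifKO 5 of the 28 rose (Cldn3, Marveld3, Pkp1, Tjp3 and Cldn10) and 1 fell (Cldn12). Over all 16799 tested genes, 6.04% rose and 2.82% fell at the same adjusted p threshold of 0.05. A log2FC over 1 was found for 4 of the 28 (1.36% of all tested genes), all at or under 1.34 CPM in the controls, and a log2FC under -1 past the threshold for none (0.0655%). Of the 14 junction genes with at least 5 TPM (the count scaled to exon length and library size) in the controls, Cldn10 rose, Cldn12 fell, and the other 12 had log2FC between -0.07 and 0.50 and did not pass. The median log2FC of the 28 was 0.13, beside -0.0034 over all tested genes, and 20 of the 28 (71.4%) lay above 0, beside 49.1%. For 5 of the 28 (Cldn3, Marveld3, Pkp1, Cldn19 and Cldn23) fewer than 3 control libraries reached the read cutoff, so they entered the test partly or wholly through their Kdm1a-ifKO libraries, and the count and median describe the tested genes only. Every Kdm1a-ifKO library lay above every control library for 9 of the 28, and below for 2, where the shares over all tested genes were 15.7% and 14.4%, and 30.0% for either. DESeq2 called 4 junction genes higher (Dsp in place of Pkp1 and Cldn10) and 2 lower (Cldn12 and Dsc3), beside 5.28% and 3.18% of the genes to which it gave an adjusted p. Without the filter on low counts edgeR called 10 higher and 2 lower of 47, beside 5.03% and 3.79%.

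**Figure D1:**
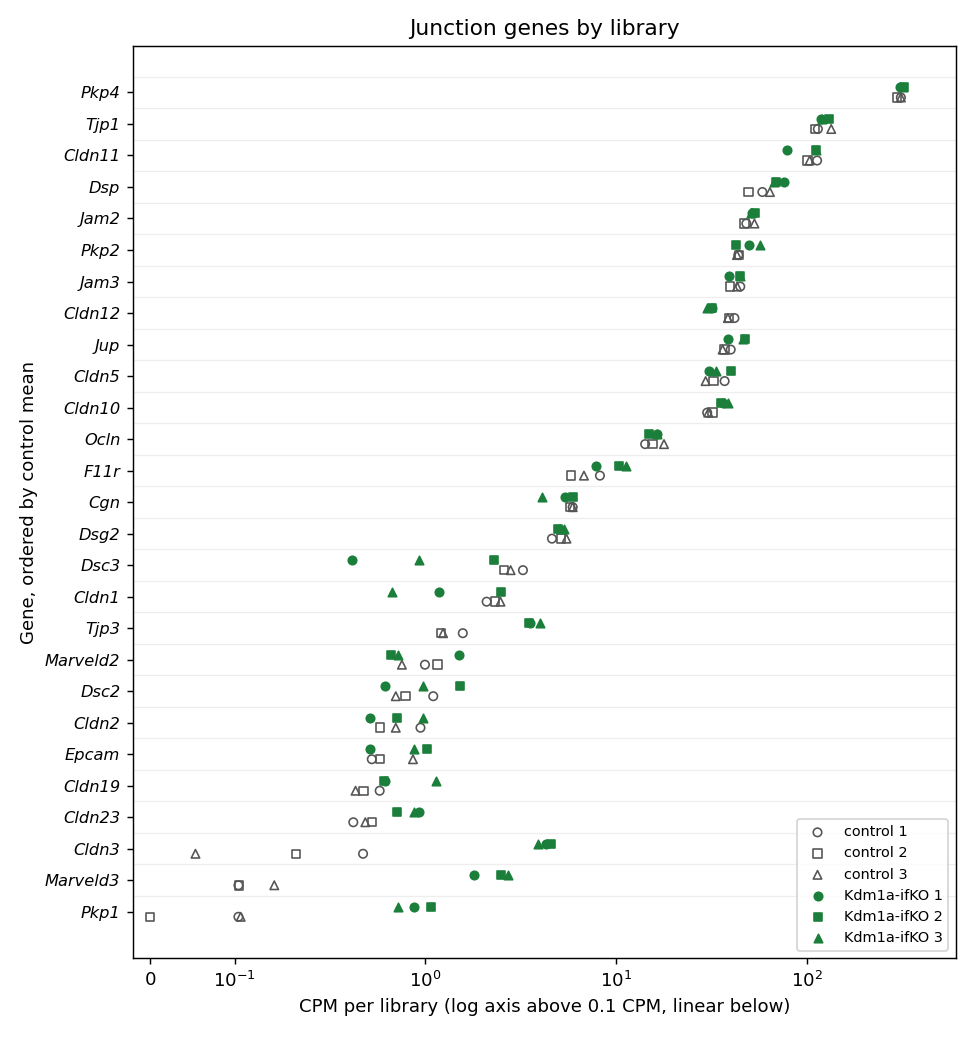
Level of the tested junction genes, all but 1 of the 28, in every library, in CPM, with open symbols for the 3 controls and filled symbols for the 3 Kdm1a-ifKO mice. Cldn3, Marveld3 and Pkp1 lie under 0.5 CPM in every control and at or above 0.719 CPM in every Kdm1a-ifKO library. Genes above 10 CPM in the controls differ less between genotypes, though Cldn10, Cldn12 and Dsp do not overlap.

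The promoters of Cldn3 and Tjp3, which rose, of Cldn4, the neighbour of Cldn3 on chromosome 5, and of Cldn12, which fell, are shown because these genes carry the results that follow and have RefSeq entries (build GRCm38.p6). Each window runs 5′ to 3′ on the gene's strand from 250 bases before to 50 bases after a start site, and capitals mark the E-box CACCTG or its reverse complement CAGGTG, the motif that Snail and Zeb repressors of epithelial genes are known to bind.
Cldn3 (chr5:134985964-134986263, plus strand): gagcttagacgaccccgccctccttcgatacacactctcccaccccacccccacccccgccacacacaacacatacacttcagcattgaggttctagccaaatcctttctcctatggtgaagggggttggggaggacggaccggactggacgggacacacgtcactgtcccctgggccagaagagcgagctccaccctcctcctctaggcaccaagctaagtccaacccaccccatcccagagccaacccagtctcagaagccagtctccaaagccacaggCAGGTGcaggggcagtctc
Cldn4 (chr5:134946885-134947184, minus strand): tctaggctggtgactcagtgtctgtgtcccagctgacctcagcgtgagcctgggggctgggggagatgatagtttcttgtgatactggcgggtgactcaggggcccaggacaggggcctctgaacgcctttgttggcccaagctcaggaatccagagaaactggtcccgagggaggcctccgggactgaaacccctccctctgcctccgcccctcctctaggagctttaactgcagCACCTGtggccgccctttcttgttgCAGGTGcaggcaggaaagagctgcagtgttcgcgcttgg
Tjp3, upstream window (chr10:81291532-81291831, minus strand): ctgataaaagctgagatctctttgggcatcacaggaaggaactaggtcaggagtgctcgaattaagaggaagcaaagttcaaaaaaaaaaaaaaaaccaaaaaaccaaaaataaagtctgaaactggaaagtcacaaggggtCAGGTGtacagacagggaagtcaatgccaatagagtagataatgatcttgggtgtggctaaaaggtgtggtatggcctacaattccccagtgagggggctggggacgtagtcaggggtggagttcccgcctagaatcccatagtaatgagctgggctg
Tjp3, downstream window (chr10:81291218-81291517, minus strand): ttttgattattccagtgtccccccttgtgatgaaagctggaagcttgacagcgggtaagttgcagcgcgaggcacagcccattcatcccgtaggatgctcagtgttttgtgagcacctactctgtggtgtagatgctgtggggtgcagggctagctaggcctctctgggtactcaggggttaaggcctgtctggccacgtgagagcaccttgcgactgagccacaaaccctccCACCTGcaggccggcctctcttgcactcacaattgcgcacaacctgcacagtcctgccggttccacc
Cldn12 (chr5:5514740-5515039, minus strand): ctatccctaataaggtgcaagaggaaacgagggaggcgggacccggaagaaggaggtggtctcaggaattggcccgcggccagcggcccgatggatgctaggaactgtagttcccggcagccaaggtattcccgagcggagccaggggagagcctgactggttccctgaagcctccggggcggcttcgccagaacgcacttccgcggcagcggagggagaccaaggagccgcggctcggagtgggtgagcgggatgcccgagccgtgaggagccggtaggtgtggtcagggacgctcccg

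Cldn3 held 1 E-box at position 31 from its start, Cldn4 held 2 (14 bases before and 11 after), and each Tjp3 window held 1 (108 bases before the start in the upstream window and 17 before in the downstream one). None of the 3 Cldn12 windows and neither Cldn10 window held the motif. RefSeq windows were found for 29 of the 53 junction genes, 41 windows in all. Marveld3 and Pkp1, which also rose, had no window, so their promoters were not examined. The E-box occurred in 15 of the 41 (36.6%), beside 20.2% of the 32851 windows in the table, and in at least 1 window of 12 of the 29 genes (41.4%), beside 22.6% of all symbols. Windows of junction genes were also richer in GC (median 58.3% against 52.7%) and CpG (median 10 against 7 per window), and windows of 1 gene can overlap each other. The motif occurred as well in genes that did not pass the test, such as Ocln, Marveld2 and Epcam. The grainyhead-like motif AACC, any base, GTT, searched on both strands, was in none of the 41 windows and in 1.09% of all windows.

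Among the claudins, 9 of 23 were tested, 2 rose, 1 fell and 5 had no read in any library. Cldn3 (ENSMUSG00000070473, chr5:134986214-134987472, GRCm38), a barrier-forming claudin of epithelia, had 9, 4 and 1 reads in the controls and 83, 90 and 76 in Kdm1a-ifKO. Every Kdm1a-ifKO library was far above every control, among which the spread was wide. The level went from 0.245 ± 0.211 to 4.25 ± 0.334 CPM (SD, n = 3 mice a group, as for all later values), a log2FC of 4.07 (SE 0.354, 95% interval 3.31 to 4.84, adjusted p 8.77e-06, edgeR). Without control 1, which held 9 of the 14 control reads, the log2FC was 4.93. Per exon length this was 0.774 ± 0.668 against 13.5 ± 1.14 TPM. The strand setting of the read counting is not stated, so the antisense gene Wbscr25 that overlaps Cldn3 could share its reads. Wbscr25 held 6 to 14 reads in each library.

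Cldn12, a claudin found in brain endothelium and other cells, moved the other way. It had 796, 743 and 716 reads in the controls and 621, 627 and 585 in Kdm1a-ifKO. The groups did not overlap, and the level fell from 39.7 ± 1.69 to 31.3 ± 1.06 CPM (log2FC -0.34, SE 0.0643, adjusted p 0.0046). In bulk tissue, fewer cells of a type and less RNA per cell cannot be told apart. None of 15 endothelial marker genes passed the test, and their summed level was 487 to 517 CPM in the controls and 467 to 597 CPM in Kdm1a-ifKO.

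Cldn10, an ion-channel-forming claudin that astrocytes are known to express, had 573, 608 and 565 reads in the controls and 708, 697 and 753 in Kdm1a-ifKO. The groups did not overlap and the difference was small (30.7 ± 1.03 against 36.8 ± 1.68 CPM, log2FC 0.26, SE 0.0654, adjusted p 0.0258). The call did not survive the removal of control 1 (adjusted p 0.0677), Kdm1a-ifKO 1 (0.0712) or Kdm1a-ifKO 3 (0.126), and DESeq2 did not make it (0.0578). The summed level of 8 astrocyte markers also separated the groups, at 5478 to 6114 CPM in the controls and 6118 to 6448 CPM in Kdm1a-ifKO, with Slc1a3 (log2FC 0.22, adjusted p 0.0161) and Aldoc (0.20, adjusted p 0.0258) past the threshold. The part of astrocyte RNA in the Cldn10 value was not tested.

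The claudins of myelin and vessel showed no change that passed the test. Cldn11 had 2159, 1917 and 1919 reads in the controls and 1533, 2207 and 2163 in Kdm1a-ifKO, with Kdm1a-ifKO 1 below the controls and the other 2 within their range once scaled to library size (log2FC -0.07, 95% interval -0.40 to 0.27). None of 10 oligodendrocyte markers passed either. Cldn5 had 707, 616 and 547 against 593, 786 and 648 reads, with overlapping groups (log2FC 0.07, interval -0.18 to 0.32). Both intervals include the log2FC of Cldn10, so a change of that size is not excluded for either gene.

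Cldn4, which epithelia often co-express with Cldn3 and which lies 39280 bases from it, had no read in any control and 0, 3 and 4 in Kdm1a-ifKO. It was too low to test. Against the 3 reads that a count of 0 allows over the control group, the observed Kdm1a-ifKO level was 2.26-fold higher. This ratio covers counting error of the controls only and takes the Kdm1a-ifKO reads as exact, so it is not a lower bound. Cldn7, a claudin of many simple epithelia, had none in the controls and 2, 9 and 2 reads in Kdm1a-ifKO, most of them from Kdm1a-ifKO 2. Its ratio against the same 3 reads was 4.20, with the same limits, and was not computed without Kdm1a-ifKO 2. The remaining tested claudins (Cldn1, Cldn2, Cldn19 and Cldn23) had 0.476 to 2.29 CPM in the controls and did not pass. Cldn23 and Cldn19 lay above the controls in all 3 Kdm1a-ifKO libraries, with log2FC of 0.81 (adjusted p 0.153) and 0.66 (adjusted p 0.305). Cldn13, Cldn16, Cldn18, Cldn22 and Cldn24 had no reads at all, and Cldn6, Cldn8, Cldn9, Cldn14, Cldn15, Cldn17 and Cldn20 had 0 to 13 reads in any library.

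**Figure D2:**
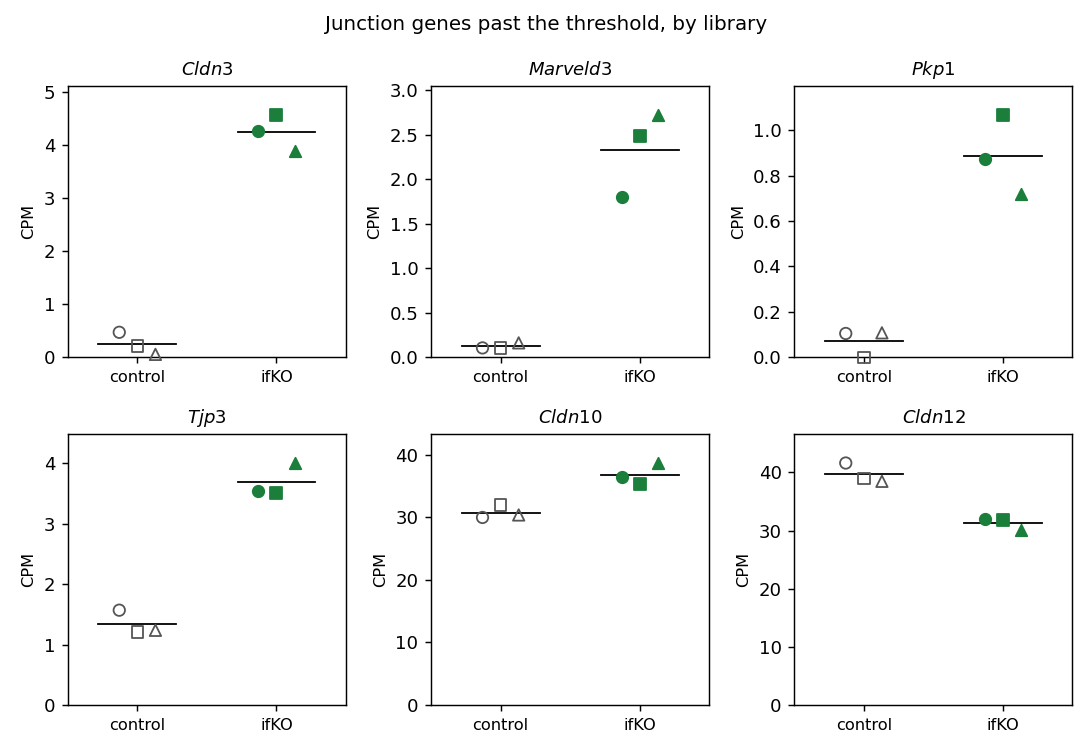
CPM in each library for the 6 junction genes past the threshold, with circles, squares and triangles for mice 1, 2 and 3 of each genotype and a bar at the group mean. In none of the 6 do the genotypes overlap, and the increases of Cldn3, Marveld3 and Pkp1 start from at most 0.471 CPM.

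In the MARVEL family, only Marveld3 of the 3 tested genes passed the threshold. Marveld3 (ENSMUSG00000001672, chr8:109947914-109962203), a tetraspan protein of epithelial tight junctions, had 2, 2 and 3 reads in the controls and 35, 49 and 53 in Kdm1a-ifKO. The lowest Kdm1a-ifKO library, with 35 reads, was far above the highest control, with 3. The level was 0.124 ± 0.0326 against 2.34 ± 0.479 CPM, and the log2FC of 4.17 (SE 0.373, 95% interval 3.37 to 4.98, adjusted p 9.26e-06) differed from that of Cldn3 by less than the SE of either. No annotated gene overlaps it. Its relatives did not pass: Ocln (occludin) had 271, 295 and 331 reads in the controls and 317, 292 and 317 in Kdm1a-ifKO (log2FC 0.00, interval -0.21 to 0.21), and Marveld2 (tricellulin), which marks the corners where 3 cells meet, had 14 to 22 against 13 to 29 reads (log2FC -0.02, interval -0.78 to 0.74).

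None of the 3 junctional adhesion molecules passed. F11r (JAM-A), the member found in epithelium and endothelium, had 157, 110 and 126 reads in the controls and 152, 203 and 219 in Kdm1a-ifKO, where Kdm1a-ifKO 1 fell within the control range (log2FC 0.50, interval 0.15 to 0.85, adjusted p 0.0771). It passed without Kdm1a-ifKO 1 (log2FC 0.64, adjusted p 0.0367) and without control 1 (log2FC 0.64, adjusted p 0.0397). Jam2 had 919, 896 and 986 against 1001, 1057 and 992 reads (log2FC 0.08, adjusted p 0.499). Jam3 had 854, 753 and 800 against 759, 873 and 866 reads (log2FC 0.01, adjusted p 0.968). Both overlapped between genotypes.

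Of the 4 tight junction plaque genes, Tjp3 rose. Tjp3 (ENSMUSG00000034917, chr10:81273207-81291581), which encodes the scaffold ZO-3, had 30, 23 and 23 reads in the controls and 69, 69 and 78 in Kdm1a-ifKO. The groups were well apart, with 1.34 ± 0.201 against 3.69 ± 0.278 CPM and a log2FC of 1.46 (SE 0.198, 95% interval 1.03 to 1.88, adjusted p 4.24e-04). Apba3, an adaptor gene on the opposite strand that overlaps Tjp3, had 369 to 444 against 463 to 530 reads (log2FC 0.21, adjusted p 0.144), and reads in the shared stretch cannot be told apart. Tjp1 (ZO-1), a far more abundant scaffold, had 2179, 2095 and 2491 against 2313, 2567 and 2327 reads (log2FC 0.04, interval -0.12 to 0.20), and Cgn (cingulin) had 109 to 113 against 79 to 117 reads (log2FC -0.19, adjusted p 0.501).

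In the desmosome, a plaque gene rose and no cadherin passed the test. Pkp1 (plakophilin 1, ENSMUSG00000026413, chr1:135871395-135919207), which strengthens desmosomes in stratified epithelium, had 2, 0 and 2 reads in the controls and 17, 21 and 14 in Kdm1a-ifKO. The groups did not overlap, though the counts are low (0.0707 ± 0.0612 against 0.886 ± 0.174 CPM, log2FC 3.54, SE 0.575, 95% interval 2.30 to 4.78, adjusted p 0.00177). The overlapping Gm36938 held 0 to 2 reads a library. DESeq2 gave Pkp1 no adjusted p, as for many genes of low mean.

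Of the other plaque genes, 4 were abundant and tested, and none passed. Dsp (desmoplakin), which links the plaque to intermediate filaments, had 1115, 938 and 1189 reads in the controls and 1476, 1359 and 1310 in Kdm1a-ifKO. All Kdm1a-ifKO libraries were higher, but the adjusted p was 0.0576 (log2FC 0.31, SE 0.0889, interval 0.11 to 0.50). Without control 3 the adjusted p was 0.00841 at a log2FC of 0.40, and without Kdm1a-ifKO 2 it was 0.0953. Jup (plakoglobin), shared by desmosomes and adherens junctions, had 761, 704 and 672 against 746, 927 and 895 reads (log2FC 0.22, adjusted p 0.113), and passed without Kdm1a-ifKO 1 (log2FC 0.31, adjusted p 0.0346). Pkp2 had 834, 837 and 799 against 966, 836 and 1100 reads (log2FC 0.19, adjusted p 0.224), and passed only when Kdm1a-ifKO 2 was removed alone or with control 3. Pkp4, a relative that also works at neuronal contacts, had 5933, 5651 and 5775 against 5980, 6369 and 6211 reads (log2FC 0.05, interval -0.05 to 0.15). These genes overlapped between genotypes, other than Dsp.

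**Figure D3:**
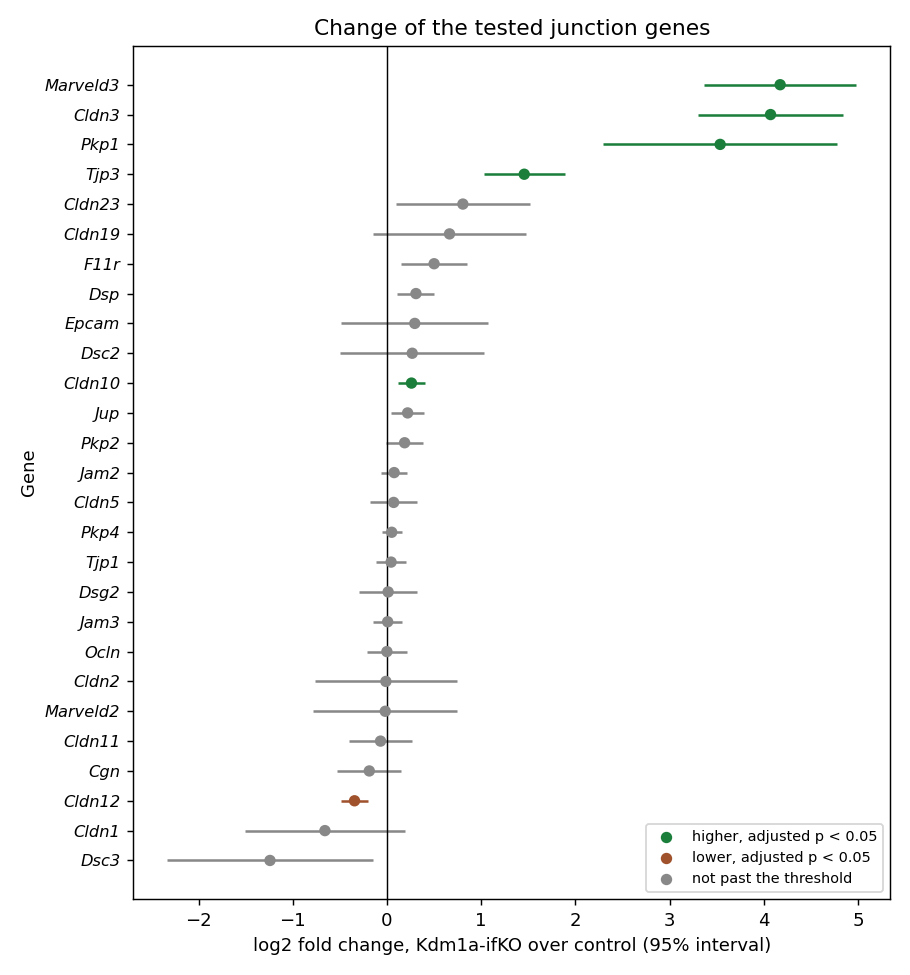
Fitted log2 fold change of the tested junction genes, all but 1 of the 28, with its 95% interval, coloured by the edgeR call. The 4 genes with log2FC over 1 are separated from the rest, Cldn10 and Cldn12 are called at small changes of 0.26 and -0.34, and the interval of Dsc3 reaches from -2.33 to -0.15.

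For Dsc3 and Cldn1 the call turned on 1 library. Dsc3 (desmocollin 3, chr18:19960930-20002351) had 62, 49 and 52 reads in the controls and 8, 45 and 18 in Kdm1a-ifKO, where Kdm1a-ifKO 2 nearly reached the controls and the other 2 were far lower. The log2FC of -1.24 (SE 0.468) did not pass (adjusted p 0.155), but without Kdm1a-ifKO 2 it was -2.09 with an adjusted p of 9.82e-04, and DESeq2 on all libraries gave 0.0426. Cldn1 had 40, 44 and 46 reads against 23, 49 and 13, again with Kdm1a-ifKO 2 above the other 2 (log2FC -0.66, adjusted p 0.325, and -1.30 with adjusted p 0.015 without it). These 2 genes are low in whole hippocampus, at 2.11 and 1.88 TPM in the controls. Kdm1a-ifKO 2 also held the highest count of its group for Cdh1 (E-cadherin, the adhesion receptor of epithelial adherens junctions), at 0, 34 and 6 reads against 1, 2 and 13, for Pkp3 (1, 13 and 4 against 7, 5 and 1) and for Dsc2 (12, 30 and 19 against 21, 15 and 13). The same library had the leptomeningeal marker sum of 259.0 CPM, while the other 2 Kdm1a-ifKO libraries lay below all controls in that sum. Single markers did not all follow the sum: for 2 of the 10, every Kdm1a-ifKO library lay above every control. The genes named here were picked after their values were seen. Other low genes went the other way, with Kdm1a-ifKO 2 lowest of its group for Marveld2 (29, 13 and 14 reads) and Grhl2 (7, 2 and 10). The part of meningeal RNA in these values was not tested.

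**Figure D4:**
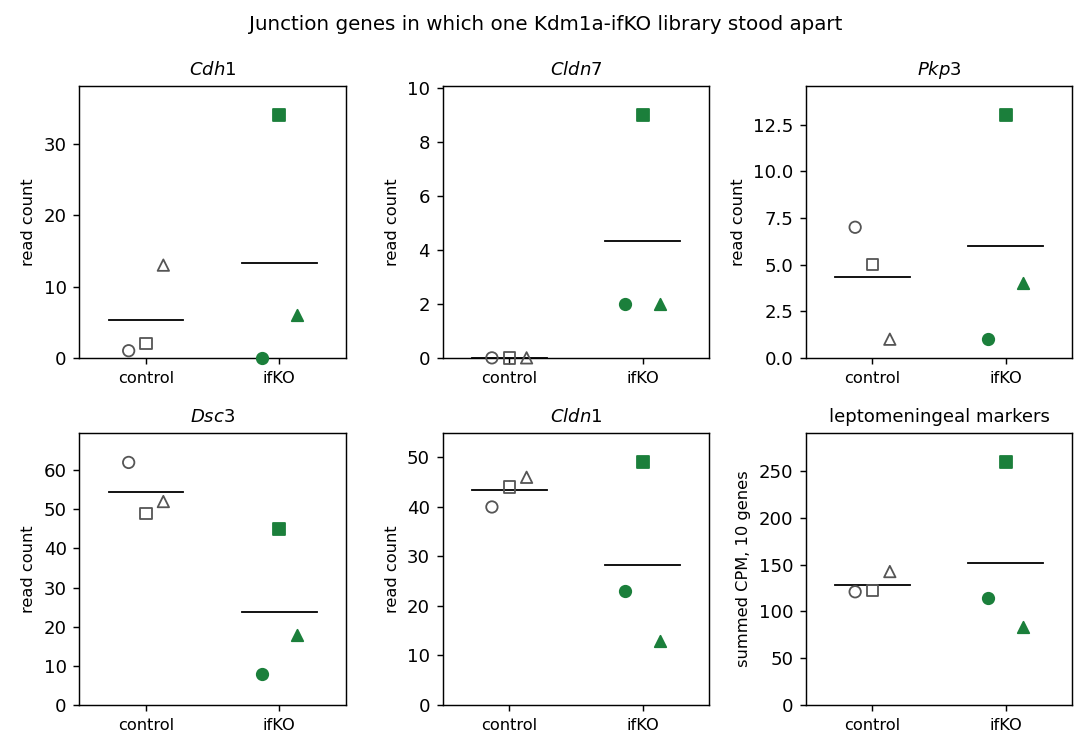
Read counts of Cdh1, Cldn7, Pkp3, Dsc3 and Cldn1 and the summed CPM of 10 leptomeningeal markers in each library, with a bar at the group mean and mice 1, 2 and 3 as circles, squares and triangles. Kdm1a-ifKO 2 (square) is the highest of its group in all 6 panels, with 34 Cdh1 reads against 0 and 6. The genes shown were picked after their values were seen.

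Epcam, an adhesion molecule of most simple epithelia, had 10, 11 and 16 reads in the controls and 10, 20 and 17 in Kdm1a-ifKO, which overlapped (log2FC 0.29, interval -0.48 to 1.07). The regulators stayed low in both groups: Esrp1 and Esrp2, splicing factors of epithelial cells, had at most 6 reads a library, and Grhl2, a transcription factor that drives Cdh1 and claudin genes, had 4 to 8 reads in the controls and 2 to 10 in Kdm1a-ifKO. Dsg2, the remaining tested cadherin, had 88 to 102 against 98 to 104 reads (log2FC 0.01, interval -0.29 to 0.32). The rest of the cadherins (Dsc1, Dsg1a, Dsg1b, Dsg1c, Dsg3 and Dsg4) had at most 5 reads in any library, and reads shared by the near-identical Dsg1 copies may be lost in the mapping filter.

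Levels per exon length in the controls ran from 0 to 224 TPM. 14 of the 53 genes reached 5 TPM, 8 lay between 1 and 5, and 31 were under 1. Cldn11 (224 ± 14.5 TPM) and Pkp4 (213 ± 5.57 TPM) led and overlapped across the control mice. They were followed by Cldn5 (92.4 ± 11.1), Tjp1 (60.7 ± 6.32), Jam3 (52.6 ± 3.33) and Cldn10 (47.2 ± 1.55), each apart from its neighbours in the order. Cldn12 came next at 37.3 ± 1.73, Jam2 (32.4 ± 1.99) and Pkp2 (32.2 ± 0.470) overlapped, as did Dsp (23.5 ± 3.01) and Jup (23.2 ± 1.28), and Ocln (14.9 ± 1.66) and F11r (10.3 ± 1.86) closed the group above 5 TPM. Lengths from the longest transcript changed single levels, for instance Jup to 36.6 TPM, so the order holds only for the length used. Cldn10, Dsp, Jam2, Jam3, Tjp1 and Dsg2 overlap small or predicted genes whose reads could be shared with them. In Kdm1a-ifKO, Cldn3 (13.5 ± 1.14 TPM) reached the level of Ocln and F11r in the controls, while Marveld3 (2.84 ± 0.587 TPM), Tjp3 (3.96 ± 0.284 TPM) and Pkp1 (0.705 ± 0.143 TPM) stayed lower.

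Further junction and epithelial lists were read for comparison, beside the 6.04% of all tested genes that rose and the 2.82% that fell. These lists were chosen with earlier results of these data known. Of 25 tested other tight junction genes 4 rose and none fell (median log2FC 0.06): Crb2, an apical polarity protein, from 5.93 ± 0.756 to 10.0 ± 0.563 CPM (log2FC 0.76, adjusted p 0.00196), Marveld1 (0.38, adjusted p 0.0256), and the polarity scaffolds Pard3 (0.27, adjusted p 0.0254) and Mpp5 (0.24, adjusted p 0.042). Dennd1a overlaps Crb2 on the opposite strand and could share its reads, and small predicted genes overlap Pard3 and Mpp5. Of 9 tested other desmosome and hemidesmosome genes 3 rose and none fell (median 0.15). These were Cdsn (corneodesmosin) with 12, 14 and 11 reads against 48, 37 and 36 (log2FC 1.65, adjusted p 0.00149), and the plakin proteins Ppl (periplakin, 0.80, adjusted p 0.00132) and Evpl (envoplakin, 0.71, adjusted p 0.00706). None of the 3 overlaps another gene. Of 13 tested adherens junction genes 1 rose and 1 fell: Nectin4, an epithelial nectin, had 126, 168 and 125 reads against 283, 243 and 228 (log2FC 0.80, adjusted p 0.00211), and Nectin3, a neuronal nectin of synaptic contacts, had 710, 779 and 945 against 543, 451 and 492 (log2FC -0.76, adjusted p 0.00462). None of 7 tested epithelial regulators and none of 5 tested epithelial membrane and polarity genes passed. Of 5 tested repressors of the epithelial state, Zeb1, which binds the E-box, rose from 86.0 ± 4.21 to 101 ± 2.56 CPM (log2FC 0.23, adjusted p 0.0200). Gm10125 and Gm16147 overlap Zeb1 on the opposite strand.

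Markers of other cells were measured beside these values, and their counts stand beside the same 6.04% higher and 2.82% lower over all tested genes. Choroid plexus epithelium, which makes Cldn1, Cldn2 and Cldn3, was represented by 12 genes, of which 9 could be tested and 1 rose, Kl, also a neuronal gene (log2FC 1.28, adjusted p 1.32e-07). The sum of all 12 was 42.8 to 69.4 CPM in the controls and 72.8 to 80.5 CPM in Kdm1a-ifKO, and without Kl it was 19.6 to 45.6 and 12.2 to 20.4 CPM, where the groups overlapped. Ttr, the most abundant choroid plexus transcript, had 611, 204 and 131 reads in the controls and 64, 123 and 159 in Kdm1a-ifKO (log2FC -1.49, adjusted p 0.337). The groups overlapped. The part of choroid plexus RNA in the Cldn3 value was not tested. Of the 10 leptomeningeal markers none passed. Their median log2FC was 0.52, and 8 lay above 0 (80.0%, beside 49.1% of all tested genes). For 2 every Kdm1a-ifKO library lay above every control (15.7% of all tested genes), and for none below (14.4%). All 7 microglial markers were higher in mean and 3 passed (Cx3cr1, Csf1r and Tmem119), with a sum of 307 to 331 CPM against 348 to 437 CPM. Ependyma had 1 of 7 tested genes lower (Enkur), excitatory neurons 2 of 8 lower (Neurod6 among them) and dentate granule neurons 2 of 8 higher (C1ql2 and Npnt).

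The nearest protein-coding genes on either side of the 4 strongly risen genes were read as well. Abhd11, 21680 bases from Cldn3, had a log2FC of 0.00 (adjusted p 0.985), Phlpp2, 3243 bases from Marveld3, of -0.02 (adjusted p 0.904), and Pip5k1c, 1382 bases from Tjp3, of 0.10 (adjusted p 0.313). Tnnt2 and Igfn1 beside Pkp1 had log2FC of -0.42 (adjusted p 0.661) and -0.37 (adjusted p 0.825). No tested neighbour passed the threshold, and Cldn4 and Tat, which lies 28234 bases from Marveld3, were too low to test.

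In sorted Camk2a+ neurons of WT mice, a CTCF loop anchor lay within 10 kb of 22 of the 53 junction genes (41.5%) and 13 of the 28 tested (46.4%), beside 9540 of 16758 tested genes (56.9%). With loops of at least 5 paired-end tags (PETs, read pairs joining both anchors), 13 of the 28 (46.4%) had an anchor, beside 48.3%. Each loop comes from 1 library, so there is no replicate check. Tjp3 had 14 loops, against a median of 1 over tested genes and 3.59% of them with as many. Its strongest joined chr10:81287419-81296327 to chr10:81297844-81308817 with 190 PETs over 11.5 kb, both anchors lying near the gene. Another with 110 PETs reached an anchor near Tbxa2r, Cactin and Pip5k1c. Of 17 genes at the other ends of its loops, 2 rose (Matk, log2FC 0.26, adjusted p 0.00925, and Hmg20b, log2FC 0.29, adjusted p 0.0444) and none fell, beside 6.04% and 2.82% of all tested genes.

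Pkp1 had 5 loops, the strongest with 95 PETs between chr1:135859172-135869652 and chr1:135942442-135946613, a span of 80.1 kb that holds the gene, and none of the 3 genes at other ends passed. Marveld3 had 4, the strongest with 68 PETs to an anchor near Zfp612 (log2FC -0.05, adjusted p 0.689). Cldn10 had 4 loops and Cldn12 had 3, with no called partner. Cldn3 had no anchor within 10 kb and lay inside 7 loops of 22 PETs in all. The desmosomal cadherin cluster on chromosome 18 had no anchor either, and its 9 genes lay inside the same 2 loops. Since the loops were mapped in WT neurons only, their change with Kdm1a loss is not described by these data.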

How the data were processed

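Poly-A RNA-seq libraries of whole hippocampus from 3 control and 3 Kdm1a-ifKO mice were compared, with 1 library per mouse. Per the methods of the study and the labels, the authors trimmed reads with cutadapt 1.18, aligned them with HISAT2 2.1.0 to GRCm38 (mm10), kept those with high mapping quality on nuclear chromosomes, and deposited raw read counts per Ensembl gene from HTSeq 0.11.1. The strand setting is not given in the sources used here. The authors made the loops with ChIA-PIPE on mm10 and deposited 27786 intrachromosomal CTCF loops with their counts of paired-end tags (at least 3) and a peak at both anchors, from 1 library. ChIP-seq and 4C samples were not analysed here.

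Gene symbols came from GENCODE M21, which held 48435 (99.3%) of the 48795 counted genes. Counts were fitted with edgeR 4.0.16 in R 4.3.3 (filterByExpr, which kept 16799 genes, TMM scaling, robust quasi-likelihood test, Benjamini-Hochberg adjustment over all tested genes, threshold 0.05). CPM used the TMM-scaled library size, and TPM the union of exons. Between 2 replicates, the counts differed by more than sampling noise (chi-square per degree of freedom 3.09 to 8.16), so each library counted as its own replicate. Libraries held 18985542 to 19469947 counts. The SE of log2FC was derived from log2FC and the F statistic of the edgeR test, and the 95% intervals are symmetric around log2FC. Both include the spread between mice, while ratios against a zero count cover counting error of the controls only. Fits were checked on simulated counts. Genes described with values in every library were those past the threshold, those with at least 5 TPM in either group, and those with log2FC over 1 or under -1 and at least 10 reads. The genes with low counts or values that turn on 1 library (among them Cldn1, Cldn4, Cldn7, Cdh1, Pkp3, Dsc2 and Epcam) were named after their values were seen. Values of 1 tested junction gene and 1 marker gene are not reported here. From the other lists, at most 5 genes past the threshold were named. Members, lists and tests were chosen with earlier results of these data known. Alternatives were DESeq2 1.42.0, its size factors in edgeR, no filter on low counts, a replicate block, leaving out each library, and leaving out control 3 and Kdm1a-ifKO 2 together. Loops counted within 10 kb of a gene body. Promoter windows came from RefSeq (GRCm38.p6).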

Additional observations from a re-analysis of the deposited data

How the results depend on the processing

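Cldn3, Marveld3 and Tjp3 rose and Cldn12 fell under every alternative run, and Pkp1 rose in every fit that gave it an adjusted p. Of the 19 junction genes followed by name, no called gene changed direction, and only Cldn10 lost its call in some fits (DESeq2, adjusted p 0.0578, the replicate block, 0.0652, and 3 single-library removals). Without the filter on low counts, 10 of 47 junction genes rose and 2 fell. Cldn7, Dsp, F11r and Jup were among those joining the 5, and Dsc3 joined Cldn12. In that fit 1447 genes rose (5.03%) and 1090 fell (3.79%) over all. DESeq2 called 2 lower (Cldn12 and Dsc3). With control 3 and Kdm1a-ifKO 2 both left out, an alternative chosen after seeing the data, 7 of 29 junction genes rose and 3 fell (Cldn1, Cldn12 and Dsc3). That fit called 1039 genes higher and 560 lower over all. Leaving out single libraries gave 4 to 6 junction genes higher and 1 to 3 lower, with 3 lower without Kdm1a-ifKO 2, and over all genes 646 to 876 higher and 137 to 584 lower, with 137 lower without Kdm1a-ifKO 3 and 164 without Kdm1a-ifKO 1. The cause was not tested. Replicate numbers did not pair the samples, since same-numbered libraries correlated at -0.03, -0.09 and -0.14 after removal of group means. With the replicate block 5 of 28 junction genes rose (Dsp in place of Cldn10) and 1 fell, beside 797 genes higher and 249 lower over all. With 1 read worth about 0.05 CPM, the 25 untested junction genes had at most 34 reads in a library, and Cldn7, without the filter, was the only one of them to pass in any fit. Of its 13 reads 9 came from Kdm1a-ifKO 2, and the unfiltered fit was not repeated without that library. Each group has 3 mice, so the exact test of a single gene cannot go below 0.1.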
